A study of Mus musculus with 12 samples.

Results

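Transcripts of 8 cell surface proteins by which mammary cells are sorted (Cd24a, Cd44, Epcam, Procr, Ly6a, Prom1, Thy1 and Tspan8) were followed across 12 RNA-seq libraries of sorted mouse mammary epithelial cells. The members were chosen by name, with earlier results of these data known. All 8 were found among the 20114 loci of the count table that name a single position. Each had 1 such row, which carried no other symbol, and all 8 were among the 14039 loci with enough counts to be tested. The libraries form 3 groups of 4. All mice were females of 9 weeks, and their genetic background combined 129X1/SvJ, Swiss Webster and C57BL/6. Recombined cells (mT-mG/SmoM2;MMTV-Cre, SmoM2 positive, green) had switched on SmoM2, an activated form of the Hedgehog signal transducer Smoothened. Unrecombined cells (mT-mG/SmoM2;MMTV-Cre, SmoM2 negative, red) had the same genotype without the switch, and wild type cells (mT-mG/SmoM2;+, red) carried both alleles in the absence of Cre. Cre is driven by the MMTV promoter, which is active in part of the gland epithelium, and the mT-mG reporter turns membrane fluorescence from red to green in the same cells. No group was green without SmoM2, so SmoM2, Cre activity, color and the kind of cell sorted cannot be told apart. Which surface antibodies, if any, were used in the sort is not given in the sources used here, nor from which animals each library came, so p values measure the spread between these libraries.

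The mammary duct has an inner luminal and an outer basal (myoepithelial) layer. Antibodies to CD24 and EpCAM separate them, since luminal cells carry much of both and basal cells less. Stromal cells lack EpCAM and often carry Thy-1. Within the luminal layer, Sca-1 (the product of Ly6a) and prominin (Prom1, CD133) mark hormone-sensing cells. CD44, the protein C receptor (Procr) and Tspan8 have each been used to mark cells with stem or progenitor activity in transplants. A transcript level need not follow the amount of protein on the surface, and the values below are of RNA only. In bulk samples, fewer cells of a type and less RNA per cell cannot be told apart.

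Total counts per library lay between 19581993 and 34779433. Recombined libraries 3 and 4 stood apart on principal component 1 (31.4% of the variance), at -140 and -102 against -30.2 to 48.8 in the others. The results that rest on them are given with and without them. Transcripts of salivary gland secretory genes, such as Amy1 and Smr3a, were high in 5 libraries. In CPM, the counts scaled to an equal library size of 1e+06, the 11 listed genes found in the table summed to 9814, 50794 and 19623 in recombined, unrecombined and wild type library 2. The sums were 613 in recombined library 1 and 674 in unrecombined library 1, and 42.0 to 71.5 in the other 7, where 41.4 to 69.9 came from the row that joins Amy1 with mKIAA1839, AK017534 and Rnpc3. The only recombined libraries among these 7 were 3 and 4, those that stood apart. A fit of the 7 and a fit without recombined libraries 3 and 4 thus share no recombined library. The markers of the lineages the sort could hold differed between groups. The summed level of 15 basal and myoepithelial markers was 1939 to 8062 CPM in recombined, 531 to 1174 in unrecombined and 887 to 1111 in wild type libraries. The sum of 12 fibroblast markers was 208 to 572, 5218 to 7449 and 1425 to 3480 CPM, and that of 14 luminal hormone-sensing markers 697 to 1983, 2726 to 4656 and 3245 to 6157 CPM in the same order. None of the markers in these 3 lists was at 0 throughout a group.

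Sequence bears on these counts through copies elsewhere in the genome and describes the start sites of the members. Of the stretches of 50 bases in the Ly6a transcripts of the GENCODE M21 annotation, 19.0% also occur in transcripts of another gene, most of them in Ly6c1. For Cd24a the share was 3.48%, all with Gm6212, and for the other 6 members it was 0. In the count table, rows that name Ly6a together with other loci held 918 counts over the 12 libraries, or 3.501% of the Ly6a count. For the other members this share was at most 0.0307%. The RefSeq promoter table (GRCm38.p6) held start sites of Cd44, Epcam, Procr, Prom1 and Tspan8. The 250 bases before the start site of Cd44, which rose in recombined against wild type cells, of Prom1, which fell, and of Epcam, the epithelial marker that did not pass, are shown here 5′ to 3′ along the gene. Capitals mark the E-box CACCTG, which Snail-type repressors bind, on either strand.
Cd44, chr2:102901666-102901915, minus strand: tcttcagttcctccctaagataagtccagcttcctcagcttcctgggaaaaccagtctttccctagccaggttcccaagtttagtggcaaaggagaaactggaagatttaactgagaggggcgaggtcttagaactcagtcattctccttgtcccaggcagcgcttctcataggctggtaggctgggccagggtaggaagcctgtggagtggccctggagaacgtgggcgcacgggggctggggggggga
Prom1, chr5:44101737-44101986, minus strand: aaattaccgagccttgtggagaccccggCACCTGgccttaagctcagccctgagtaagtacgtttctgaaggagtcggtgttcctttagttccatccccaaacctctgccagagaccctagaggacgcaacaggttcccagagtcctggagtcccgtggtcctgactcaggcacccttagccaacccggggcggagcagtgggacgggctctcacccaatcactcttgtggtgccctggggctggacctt
Epcam, chr17:87635729-87635978, plus strand: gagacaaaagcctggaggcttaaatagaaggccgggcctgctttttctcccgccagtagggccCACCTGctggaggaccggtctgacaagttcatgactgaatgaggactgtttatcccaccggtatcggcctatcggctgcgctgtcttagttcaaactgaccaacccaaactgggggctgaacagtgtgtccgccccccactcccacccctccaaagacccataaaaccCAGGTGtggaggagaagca
The Epcam window holds 2 matches and that of this Prom1 start site holds 1, against 17.2% of all 32851 promoter windows of the table with at least 1. Cd44, Procr, Tspan8 and a second Prom1 start site held none. Neither the Gli motif GACCACCCA (in 0.225% of all windows) nor the STAT motif TTCNNNGAA (in 7.02%) occurred, on either strand, in any window of these 5 genes. A match is a string of letters and not a measured binding site.

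Per length, Cd24a and Epcam were the highest of the 8 in every group. With exon lengths from GENCODE M21, the level in wild type cells was highest for Cd24a (1016 ± 287 CPM per kilobase, SD, n = 4) and Epcam (732 ± 117), whose libraries overlap. Ly6a followed at 135 ± 32.0, then Tspan8 at 56.5 ± 23.5, Procr at 44.3 ± 13.2 and Cd44 at 41.4 ± 11.8, 3 neighbors whose SDs overlap. Prom1 at 25.5 ± 12.3 and Thy1 at 9.08 ± 2.20 CPM per kilobase were lowest. In recombined cells Cd24a (626 ± 185) and Epcam (557 ± 167) again led. Cd44 came next at 107 ± 44.0, while Tspan8 (34.99 ± 12.4), Procr (30.2 ± 13.1) and Ly6a (30.01 ± 18.4) lay within their spread of each other, above Prom1 (8.31 ± 3.54) and Thy1 (4.25 ± 2.46). Unrecombined cells had Cd24a at 864 ± 683, Epcam at 704 ± 163, Ly6a at 80.0 ± 50.6, Cd44 at 65.7 ± 32.8, Procr at 58.8 ± 34.5, Tspan8 at 54.3 ± 8.99, Thy1 at 28.2 ± 6.20 and Prom1 at 23.4 ± 8.80 CPM per kilobase. Thus Cd44 took the sixth place in wild type and the third in recombined cells, and Ly6a went from the third to the sixth.

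**Figure D1:**
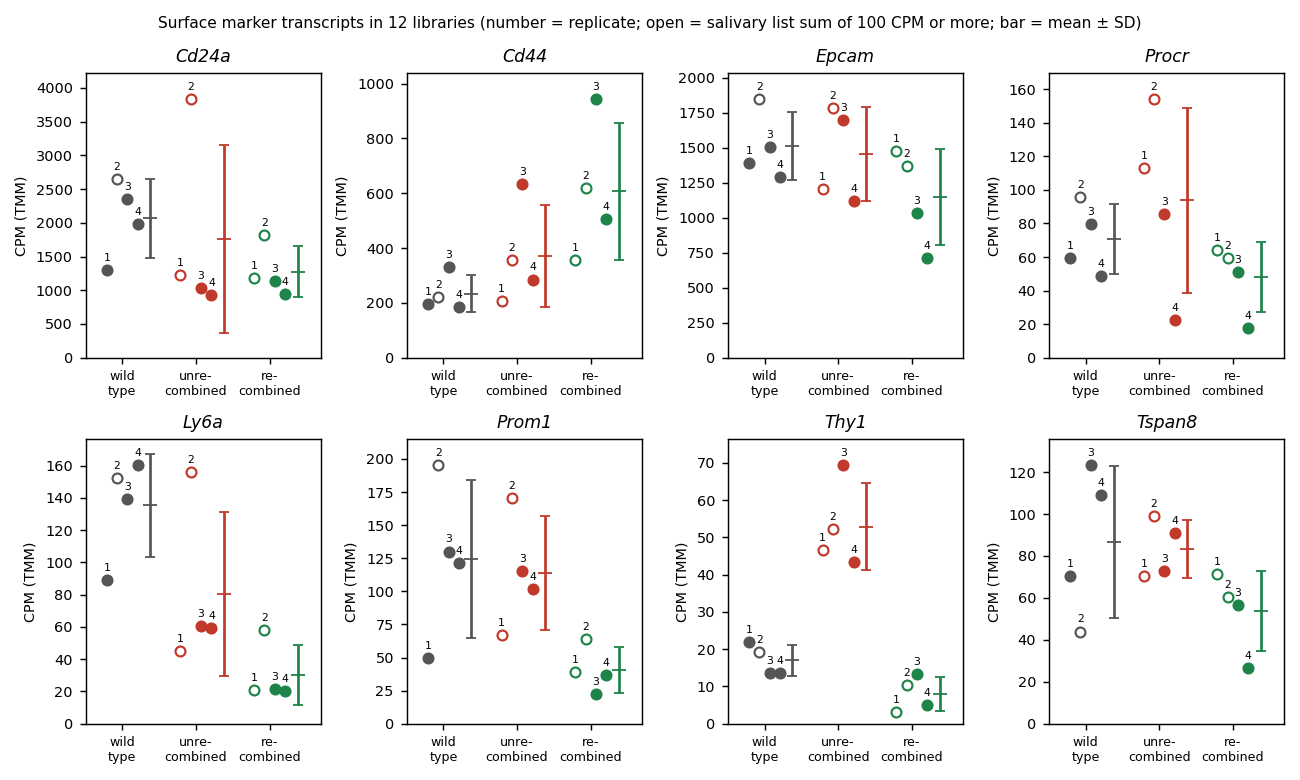
Level of the 8 surface marker transcripts in each library, in CPM with TMM scaling on linear axes from 0; points are libraries with their replicate number, open points are the 5 libraries with salivary gland transcripts, and bars are the mean and SD of 4 libraries. For Thy1, unrecombined libraries at 43.3 to 69.4 CPM lie above both other groups, while recombined library 3 (13.2) is close to wild type library 4 (13.5). The Ly6a values of all 4 recombined libraries lie below those of wild type.

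Against wild type, recombined cells had more Cd44 and less Ly6a and Prom1 RNA. By edgeR's quasi-likelihood test with adjustment over all loci, 3 of the 8 members passed an adjusted p of 0.05, 1 higher and 2 lower, where 6.55% of all tested loci passed (4.17% higher and 2.38% lower). The libraries of both groups did not overlap for 3 members (Cd44, Ly6a and Thy1), against 12.2% of all loci (6.33% higher and 5.91% lower). In unrecombined against wild type cells 0 members and 0 loci passed in edgeR, or 0% of the loci, while 541 loci had an unadjusted p under 0.05. DESeq2 called 78 loci and limma-voom 18, with Thy1 the member among them. Thy1 was also the member without overlap there, against 4.42% of all loci (2.86% higher and 1.55% lower). In recombined against unrecombined cells 2 members passed, Prom1 and Thy1, both lower, where 5.22% of loci passed (3.08% higher and 2.14% lower). Neither overlapped, against 11.3% of loci (5.57% higher and 5.71% lower). The test took no account of replicate numbers, by which recombined and unrecombined libraries varied together. With the number as a block, 4 members passed (Cd44 higher, Ly6a, Prom1 and Thy1 lower), beside 980 loci. That fit held all 12 libraries, so wild type libraries were blocked by number as well. The members' median log2 change was -0.69 in recombined against wild type cells, where the median over all loci was -0.02. It was -0.06 in unrecombined against wild type and -0.80 in recombined against unrecombined cells, with 0.00 and -0.01 over all loci. These comparisons share groups, so their values are not independent of each other.

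**Figure D2:**
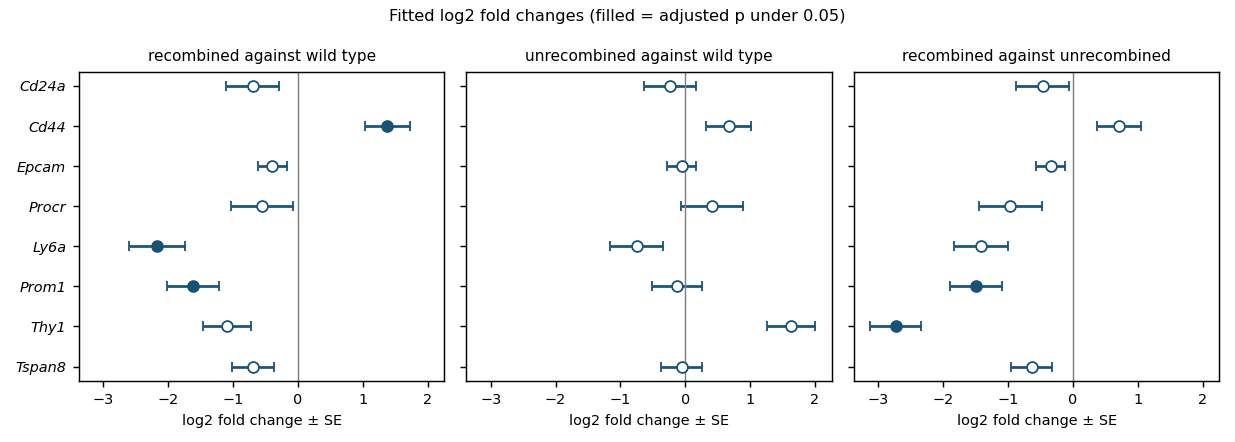
Fitted log2 fold change and SE of the 8 members in the 3 comparisons of groups of 4 libraries; filled points had an adjusted p under 0.05. The fit took no account of replicate numbers. Cd44 lies to the right of 0 in all 3 panels, while Thy1 lies at 1.63 in unrecombined against wild type and at -2.73 in recombined against unrecombined cells.

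The epithelial markers Cd24a and Epcam did not pass in any comparison. Cd24a (mm9 chromosome 10, start 43298974) encodes a small mucin-like protein tethered to the membrane by a lipid anchor. Its level was 1294, 2649, 2347 and 1977 CPM for wild type, 1225, 3834, 1040 and 931 in unrecombined, and 1188, 1817, 1144 and 946 in recombined libraries 1 to 4. The groups overlap, and the highest value of each group was in library 2, the library with the most salivary transcripts. The log2 difference of recombined from wild type cells was -0.70 ± 0.407 (SE, adjusted p = 0.365), and that from unrecombined cells -0.46 ± 0.405 (adjusted p = 0.609). The latter turned to 0.05 (adjusted p = 0.938) without the 3 libraries numbered 2, to 0.11 (0.877) in the 7 libraries low in salivary transcripts, and to 0.26 (0.712) without unrecombined library 2 alone. Epcam (chromosome 17, start 88035318) encodes a homophilic adhesion protein of epithelia. It had the smallest standard error of the 8, with 1394, 1847, 1508 and 1293 CPM in wild type, 1208, 1784, 1698 and 1121 in unrecombined, and 1476, 1367, 1035 and 715 in recombined libraries. The 2 lowest values of all 12 were those of recombined libraries 3 and 4. The difference of recombined from wild type cells was -0.40 ± 0.225 (adjusted p = 0.350), or -0.09 (adjusted p = 0.904) without those 2 libraries.

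Cd44 (chromosome 2, start 102651299), the receptor of the matrix sugar hyaluronan, rose 2.59-fold in recombined against wild type cells. Wild type libraries had 196, 223, 331 and 185 CPM, unrecombined libraries 208, 358, 634 and 285, and recombined libraries 358, 618, 944 and 507. Every recombined library was above every wild type library, while unrecombined libraries reached into both ranges and unrecombined library 3 was higher than 3 of the recombined ones. The log2 change was 1.38 ± 0.347 (adjusted p = 0.0294). This call was lost without recombined library 2 or 3 or wild type library 1, 2 or 4 (adjusted p 0.0539 to 0.101), with the series of the library number (beginning with 23 or 24) as a covariate (0.0643), without recombined libraries 3 and 4 (log2 1.06, adjusted p = 0.270), without the 3 libraries numbered 2 (0.141) and in the 7 libraries low in salivary transcripts (1.64, 0.0531). Against unrecombined cells the log2 difference was 0.71 ± 0.342 (adjusted p = 0.296), or 0.43 without recombined library 3 and 1.09 without unrecombined library 3. Recombined and unrecombined libraries of the same number varied together across loci, and with the replicate number as a block the difference of 0.74 passed (adjusted p = 0.00823). The block also covered wild type libraries, whose numbers were not taken as pairs. Within the numbered pairs Cd44 was higher in the recombined library by 0.79, 0.79, 0.57 and 0.83 on the log2 CPM scale, the narrowest range of pair differences among the 8 members. Basal markers were also higher in recombined cells (13 of 15 tested were higher than in wild type, median log2 2.55, and 3 of 15 passed without recombined libraries 3 and 4). Their sum was 1939, 4809, 5148 and 8062 CPM in recombined libraries 1 to 4. It was 531, 1174, 532 and 1126 CPM in unrecombined and 1111, 887, 1034 and 1092 CPM in wild type libraries 1 to 4. The part of the basal markers in the Cd44 result was not tested.

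The count of Cd44 set against that of Cd24a within a library, which needs no scaling between libraries, separated recombined from wild type cells. The log2 ratio was -2.72, -3.57, -2.83 and -3.42 in wild type libraries 1 to 4. It was -2.56, -3.42, -0.71 and -1.71 in unrecombined and -1.73, -1.55, -0.28 and -0.90 in recombined libraries. All recombined values were above all wild type values, and the unrecombined libraries overlapped both groups, with library 3 nearest to the recombined ones. The ratio of Procr to Epcam had means of -4.45 ± 0.234 (SD, n = 4) for wild type cells, -4.22 ± 1.02 for unrecombined and -4.68 ± 0.439 for recombined ones, which overlap. For Ly6a to Prom1 the means were 0.25 ± 0.504, -0.60 ± 0.347 and -0.49 ± 0.459, also overlapping. These ratios are descriptions and were given no test.

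**Figure D3:**
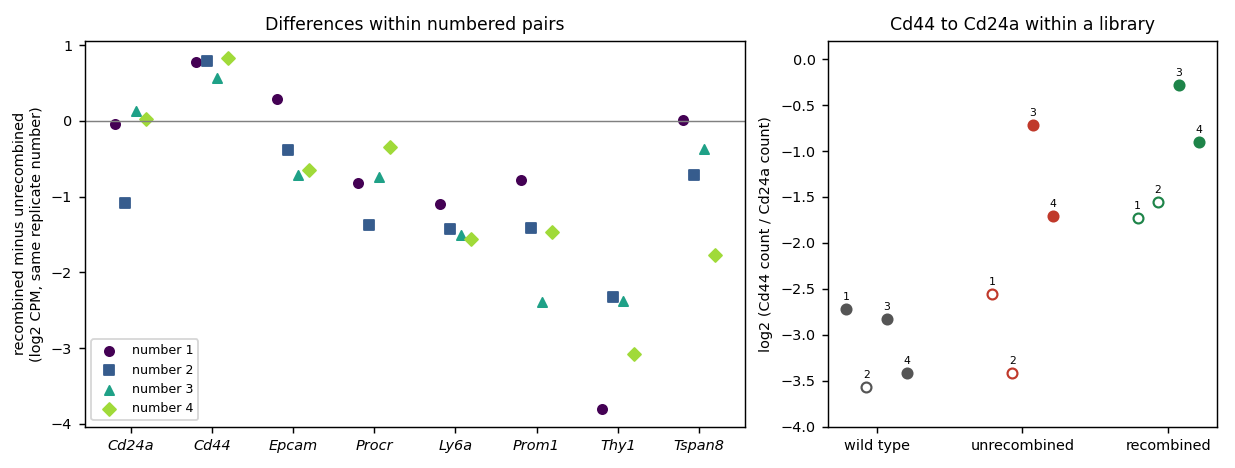
Left, difference in log2 CPM of each member between the recombined and unrecombined library of the same replicate number; right, log2 ratio of Cd44 to Cd24a counts within each library (open points are the 5 libraries with salivary gland transcripts, numbers are replicates). Ly6a, Prom1, Procr and Thy1 were lower in the recombined library of all 4 pairs and Cd44 was higher in all 4. The share of all loci with the same sign in all 4 pairs was not counted, so these signs have no background here. The Cd44 to Cd24a ratio of recombined libraries (-1.73 to -0.28) lies above that of wild type (-3.57 to -2.72).

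Ly6a (chromosome 15, start 74825306), the Sca-1 antigen, fell 4.49-fold in recombined against wild type cells. Its level was 88.8, 153, 139 and 160 CPM in wild type, 45.2, 156, 60.8 and 59.5 in unrecombined, and 21.1, 57.8, 21.4 and 20.2 in recombined libraries 1 to 4. All recombined libraries were below all wild type libraries. Library 2 stood above its group in both Cre-bearing groups, and without it the other 3 values of each group lay close together. The log2 change against wild type was -2.17 ± 0.430 (adjusted p = 0.00884). It passed in 24 of 25 alternatives, those without each single library among them, the exception being the fit without recombined libraries 3 and 4 (-1.78, adjusted p = 0.180). Against unrecombined cells it was -1.41 ± 0.420 and missed the threshold (adjusted p = 0.0736), but passed with the replicate block (-1.39, 0.0041), with DESeq2 (0.00998), without recombined library 2 (-1.94, 0.0108), without the 3 libraries numbered 2 (-1.38, 0.011) and in the 7 libraries low in salivary transcripts (-1.51, 0.033). Those 7 hold only recombined libraries 3 and 4. Without unrecombined library 2 the difference was -0.87 (0.241). The recombined library was lower in all 4 pairs, by -1.09, -1.43, -1.502 and -1.56. Between unrecombined and wild type cells the difference of -0.75 ± 0.414 did not pass (adjusted p = 1.00), although 3 of the 4 unrecombined libraries were below every wild type one.

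The summed level of markers of the luminal hormone-sensing lineage, which carries Sca-1, was lower in each recombined library than in every other library. Most of this sum was 1 gene, Prlr, with a mean of 3765 CPM in wild type and 916 CPM in recombined libraries. Of 14 such markers tested, 6 were lower and 0 higher in recombined against wild type cells, with a median log2 change of -1.37 (3 were lower without recombined libraries 3 and 4). Endothelial cells also carry Sca-1. The 12 endothelial markers summed to 84.8 to 145 CPM in wild type, 109 to 209 in unrecombined and 44.6 to 109 in recombined libraries. Of 11 tested, 0 passed against wild type, or 0 to 3 with single libraries left out (3 without recombined library 1) and 2 with DESeq2. Their median log2 change against wild type was -0.88, beside -0.02 over all loci. Against unrecombined cells the median was -1.20, with 1 lower and 0 higher. There 0 to 6 passed with single libraries left out. The part of either lineage in the Ly6a result was not tested.

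Prom1 (chromosome 5, start 44384860) encodes prominin, a protein of membrane protrusions, and fell in recombined cells against both other groups. Wild type libraries had 49.6, 195, 130 and 122 CPM and unrecombined libraries 67.2, 170, 116 and 102. Recombined libraries had 39.2, 63.6, 22.1 and 36.9 CPM. All recombined values were below all unrecombined ones, whereas wild type library 1 was below recombined library 2. Library 2 was the highest of each group. The log2 change was -1.62 ± 0.401 against wild type (adjusted p = 0.0277) and -1.49 ± 0.400 against unrecombined cells (0.0461). Both calls were near the threshold. The first was lost without recombined library 1, 3 or 4 or wild type library 2, 3 or 4 (adjusted p 0.0552 to 0.0888), with limma-voom (0.0565), in the 7 libraries low in salivary transcripts (0.0528) and without recombined libraries 3 and 4 (-1.27, 0.29992). The second was lost without recombined library 1, 3 or 4, unrecombined library 2, 3 or 4 or wild type library 3 or 4 (0.0666 to 0.139), with limma-voom (0.0667), without the filter on low counts (0.0744), without the libraries numbered 2 (0.0548), in the 7 libraries (0.0694) and without recombined libraries 3 and 4 (-1.14, 0.441), and held with the replicate block (0.00765). Of the 14 hormone-sensing markers, 6 were lower against wild type, as given for Ly6a, and 3 were lower and 0 higher against unrecombined cells. Their part in the Prom1 result was not tested.

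Thy1 (chromosome 9, start 43851466), an immunoglobulin-type surface protein of fibroblasts, T cells and some basal cells, gave the largest change of the 8. Unrecombined libraries had 46.5, 52.4, 69.4 and 43.3 CPM, wild type libraries 21.8, 19.2, 13.7 and 13.5, and recombined libraries 3.26, 10.4, 13.2 and 5.07. The 3 groups did not overlap, and unrecombined cells were highest, but recombined library 3 (13.2) and wild type library 4 (13.5) were close. Recombined cells were 6.64-fold lower than unrecombined cells, a log2 change of -2.73 ± 0.387 (adjusted p = 0.000752) that passed in all 25 alternatives. The pair differences were -3.81, -2.33, -2.38 and -3.08. Within the libraries numbered from 23 and from 24 the mean difference was -3.07 and -2.73 for Thy1, -1.10 and -1.92 for Prom1, -1.26 and -1.53 for Ly6a and 0.79 and 0.70 for Cd44. Against wild type the difference of -1.10 ± 0.369 missed the threshold (adjusted p = 0.0989), and it passed with DESeq2 (0.0394), without recombined library 3 (-1.45, 0.0424) and with the replicate block (0.0472), although wild type numbers were not taken to pair with the others. Unrecombined against wild type cells differed by 1.63 ± 0.371, which missed in edgeR (adjusted p = 0.326) and passed with DESeq2 (0.00615), limma-voom (0.0487) and edgeR on these 8 libraries alone (0.0453).

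Fibroblast markers showed the same order of groups as Thy1. All 12 fibroblast markers were lower in recombined cells than in wild type cells (median log2 -4.66) and than in unrecombined cells (median -5.76), and 11 of 12 passed in each comparison without recombined libraries 3 and 4. In unrecombined against wild type cells 0 of 12 passed, with a median of 1.41. Within the wild type group the fibroblast sum was 1840, 1425, 2529 and 3480 CPM in libraries 1 to 4. Thy1 was 21.8, 19.2, 13.7 and 13.5 CPM in the same libraries. T lymphocyte markers were near 0, with 8 genes summing to 0.754 to 9.38 CPM over all libraries and Cd3e at most at 0.375 CPM. Of the 8, 3 were at 0 in all recombined libraries and 1 in all unrecombined ones. The part of fibroblast RNA in the Thy1 result was not tested.

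**Figure D4:**
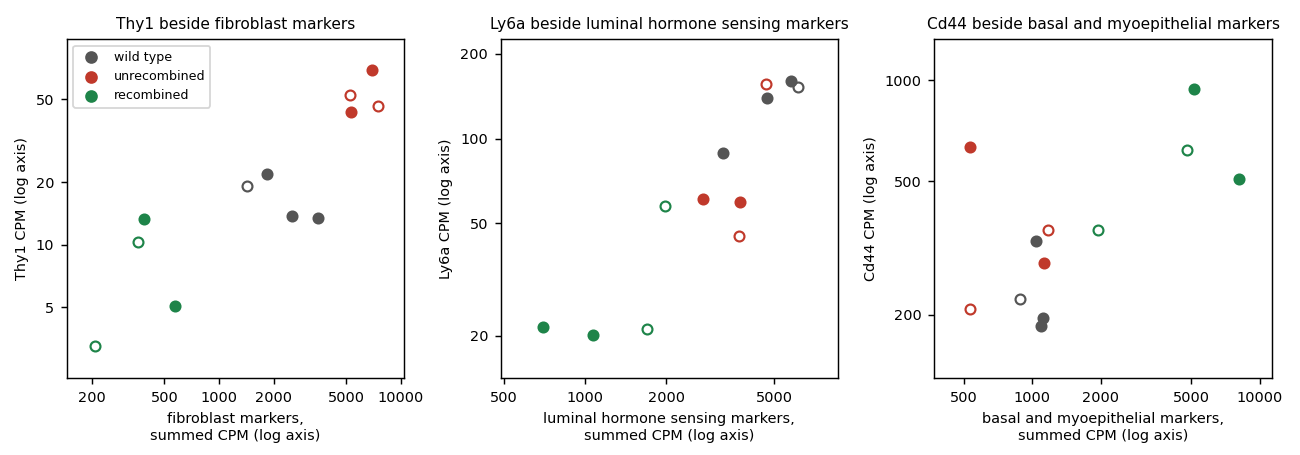
Level of Thy1, Ly6a and Cd44 in each library (CPM, log axis) against the summed CPM of fibroblast, luminal hormone-sensing and basal markers (log axis); colors are groups and open points the 5 libraries with salivary gland transcripts. Recombined libraries lie at the lower left for Thy1 and Ly6a. For Cd44 they lie to the right, at basal sums of 1939 to 8062 CPM, and an unrecombined library with 634 CPM sits at 532 CPM.

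Procr and Tspan8 did not pass in any comparison or alternative. Procr (chromosome 2, start 155576952), the endothelial receptor of the anticoagulant protein C, had 59.4, 95.9, 79.4 and 48.6 CPM in wild type, 113, 154, 85.6 and 22.7 in unrecombined, and 63.9, 59.6, 51.3 and 17.9 in recombined libraries. The lowest value of each group was that of library 4. The log2 difference of recombined from unrecombined cells was -0.96 ± 0.483 (adjusted p = 0.319, or 0.0892 with the replicate block), and the recombined library was lower in all 4 pairs, by -0.82, -1.37, -0.74 and -0.35. It was -0.62 without unrecombined library 2. Against wild type it was -0.56 ± 0.481 (0.569), or -0.28 without recombined library 4 and -0.20 without recombined libraries 3 and 4. Tspan8 (chromosome 10, start 115254339) is a tetraspanin, a protein with 4 membrane passes that organizes others in the membrane. It had 70.6, 44.0, 123 and 109 CPM in wild type, 70.6, 99.0, 73.0 and 90.9 in unrecombined, and 71.2, 60.5, 56.4 and 26.7 in recombined libraries. The 3 groups overlap. The log2 difference was -0.69 ± 0.320 against wild type (adjusted p = 0.240) and -0.63 ± 0.320 against unrecombined cells (0.319), with pair differences of 0.01, -0.71, -0.37 and -1.77. The difference from unrecombined cells was -0.41 without recombined library 4, and the 7 libraries low in salivary transcripts gave -1.25 against wild type and -0.96 against unrecombined cells.

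Of 18 other antigens used in mammary sorts, 6 were higher and 0 lower in recombined against wild type cells, with a median log2 change of 0.62 beside -0.02 over all loci. Against unrecombined cells 5 were higher and 0 lower. Without recombined libraries 3 and 4 these counts were 2 and 2. Over all loci, 6.55% passed against wild type (4.17% higher and 2.38% lower) and 5.22% against unrecombined cells. Without recombined libraries 3 and 4, 248 and 282 loci passed. These are also the background for the lists in the next paragraphs. Changes of single genes in this and the next paragraphs are log2 fold changes ± SE against wild type, followed by the adjusted p, unless another group is named. The Notch ligand Dll1 rose from 6.13 to 12.3 CPM in wild type to 53.0 to 84.6 in recombined libraries (2.88 ± 0.298, adjusted p = 0.000127), and the R-spondin receptor Lgr6 by 1.91 ± 0.305. The peptidase Mme (CD10), an antigen of basal cells, rose by 0.83 ± 0.187 and the neurotrophin receptor Ngfr by 4.42 ± 1.06. Ngfr was near 0 in wild type, at 0.0774 to 1.94 CPM, against 5.44 to 50.1 CPM in recombined libraries. The calls of Dll1 and Lgr6 held in all 25 alternatives, that of Mme in 22 and that of Ngfr in 17. The integrin Itga6 (CD49f), which marks basal cells with Itgb1 (CD29), was higher against unrecombined cells (0.63 ± 0.151, adjusted p = 0.0241, passing in 16 of 25 alternatives) and not past the threshold against wild type (0.41 ± 0.150, 0.129). Itgb1 differed from wild type by 0.35 ± 0.154 (0.212) and Itgb3 (CD61), an antigen of luminal progenitors, by 1.28 ± 0.371 (0.0549). The Itgb3 difference passed in 7 of 25 alternatives, which ranged from 0.61 to 1.83. Kit, another progenitor antigen, counted with AK047175, had 337 CPM in recombined library 1 and 97.5 to 129 in the other 3 recombined libraries, against 172 to 275 in wild type. Its difference was -0.38 ± 0.329 (0.564) and ranged from -1.06 to 0.03 over 25 alternatives, of which 2 passed, the fit without recombined library 1 (0.0177) and that of the 7 libraries low in salivary transcripts, from which that library is also missing.

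Of 8 tested antigens by which stroma, blood and vessel cells are removed from such sorts, 4 were lower in recombined than in wild type cells, 1, the transferrin receptor Tfrc, was higher, and 3 did not pass. These counts were 2 lower and 1 higher without recombined libraries 3 and 4. The fibroblast receptor Pdgfra changed by -3.51 ± 0.366 (adjusted p = 0.000127), Pdgfrb by -2.02 ± 0.282 (0.000875) and the leukocyte antigen Ptprc (CD45) by -2.54 ± 0.508 (0.00897). The row of Cd34, an antigen of vessel and blood progenitor cells, which joins it with 4 other symbols, changed by -1.59 ± 0.284 (0.00446). The endothelial antigen Pecam1 (CD31) had a difference of -1.17 ± 0.333 (0.0519), which passed in 8 of 25 alternatives. Against unrecombined cells Pdgfra changed by -5.11 ± 0.394 and Pdgfrb by -3.23 ± 0.294.

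Relatives and partners of the members changed in both directions. Of 11 tested genes of the Ly6 family, which share the three-finger fold of Sca-1, 2 were lower and 1 higher in recombined against wild type cells (median -0.13), and 0 passed without recombined libraries 3 and 4. The neighbor gene Ly6c1, at 4.58 to 11.1 CPM in wild type and 1.48 to 3.88 in recombined libraries, changed by -1.66 ± 0.390 (adjusted p = 0.0207, in 18 of 25 alternatives), and part of its reads cannot be told from those of Ly6a. Ly6e changed by -0.73 ± 0.154 (0.0123) and Lypd6b rose by 4.84 ± 1.36 (0.0492, in 6 of 24 alternatives). Lypd6b was near 0 in wild type, at 0 to 0.477 CPM, against 0.269 to 7.75 CPM in recombined libraries. Recombined library 1 (0.269) was below wild type library 1 (0.477). Of 8 tested relatives and partners of Epcam, 1 was higher and 2 were lower (median -0.39). The higher one was the tight junction protein Cldn1, which rose by 1.56 ± 0.291 (0.00558). The Prom1 paralog Prom2 differed by -0.73 ± 0.393 (0.325). Of 24 other tetraspanins, 3 were higher and 1 was lower (median -0.13): Tspan2 rose by 1.96 ± 0.360, Tspan5 by 1.72 ± 0.327 and Tspan18 by 2.42 ± 0.599, and Tspan1 changed by -1.79 ± 0.366. Without recombined libraries 3 and 4, 0 of these tetraspanins passed, in a fit where 248 of all loci passed.

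A list of 15 tested genes held enzymes and binders of hyaluronan, the ligand of Cd44, together with Spp1 (osteopontin), the integrin Itgb4, the cytoskeletal linkers Ezr, Msn and Rdx and the splicing regulators Esrp1 and Esrp2. Of these, 3 were higher and 1 was lower in recombined against wild type cells, with a median of 0.58, and 0 passed without recombined libraries 3 and 4. The synthase Has1 changed by -1.502 ± 0.307 (adjusted p = 0.00997), the hyaluronan-binding proteoglycan Vcan rose by 2.41 ± 0.573 (0.0252) and the integrin Itgb4, counted with AK140292 and Galk1, by 1.43 ± 0.311 (0.0141). The row of the hyaluronidase Hyal1, counted with Hyal3 and Nat6, was higher by 0.87 ± 0.241 (0.0462), a call that held in 7 of 25 alternatives. Of 14 genes around the protein C receptor Procr, 2 were higher and 1 was lower (median -0.23), or 1 and 0 without recombined libraries 3 and 4. The vitamin K-dependent ligand Gas6 rose by 1.11 ± 0.195 (0.00406) and its relative Pros1, the cofactor of protein C, by 0.87 ± 0.194 (0.0155), while Proc, protein C itself, changed by -2.75 ± 0.591 (0.0131).

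For each member the 2 loci nearest in pattern were found as those with the smallest root mean square difference of centered log2 CPM over the 12 libraries, among 7122 loci whose mean log2 CPM was 2 or more and whose row had a single symbol. Epcam had the nearest neighbors, Nab1 at 0.14 and Galnt3 at 0.16 on the log2 scale, where Epcam itself had an SD of 0.38. Nearest to Prom1 were the tetraspanin Tspan1 (0.27) and the sialomucin Cd164 (0.32), with an SD of Prom1 of 0.97. Nearest to Cd44 were Pmepa1 (0.26) and 1300014I06Rik (0.28, SD of Cd44 0.76), and nearest to Ly6a the ion transporter Slc12a2 (0.41) and Mboat1 (0.47, SD 1.15). Thy1 was followed by the matrix protein Postn (0.52) and the mesenchymal cadherin Cdh11 (0.56, SD 1.35). Tspan8 lay beside Psd4 (0.29) and Mbip (0.29, SD 0.60), Cd24a beside Psenen (0.38) and Dguok (0.38, SD 0.66) and Procr beside the cystine transporter Slc7a11 (0.39) and Ceacam1 (0.44, SD 0.89).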

How the data were processed

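Among the tools, the submitters' processing notes name HTSeq 0.3.1 and STAR, and as the build mm9. Options, strand setting and annotation are not given in the sources used here, so a gene and an antisense partner cannot be told apart. The authors deposited unnormalized counts of reads at each locus in 12 libraries. The 20114 rows that name 1 locus were analysed. The 16521 rows that name several loci held 0.0617% to 0.101% of a library's counts.

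Counts were scaled with TMM in edgeR 4.0.16 (R 4.3.3), filtered with its default filter (14039 loci) and tested with its quasi-likelihood F test, with a mean per group over all 12 libraries and robust dispersion. Tests were two-sided with Benjamini-Hochberg adjustment over all loci. CPM use TMM-scaled library sizes, and the SE is the log2 fold change over the root of F. The median SE over all loci was 0.37 in recombined against wild type cells. Alternatives were other scalings, DESeq2 1.42.0, limma-voom (3.58.1), no filter or at least 1 CPM in 4 libraries, a block for the replicate number, a term for the series of the library numbers, fits of 2 groups alone, all rows, and libraries left out. The 7 libraries with under 100 CPM of salivary genes and the fit without libraries numbered 2 were chosen after seeing the data. The 7 were recombined libraries 3 and 4, unrecombined libraries 3 and 4 and wild type libraries 1, 3 and 4.

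Recombined and unrecombined libraries of the same number correlated in their deviations from group means across loci (r 0.239 to 0.399, other pairs -0.24 to -0.0345), so the numbers were taken to pair them. Wild type numbers were not (same number -0.0314 to 0.185 with recombined and 0.00248 to 0.312 with unrecombined libraries). The fit with a replicate block nonetheless held all 12 libraries, wild type included. The members and gene lists were chosen with earlier results of these data known. All 8 members are named. Of a list, up to 4 genes with the smallest p are named, besides a set of antigens and relatives always named, of which 1 is not reported here. Kit, Cd34, Itgb4, Hyal1 and Amy1 are rows with joined symbols. Tfrc and Prlr were named after their values were seen. Exon lengths are those of coding transcripts in GENCODE M21.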

Additional observations from a re-analysis of the deposited data

Results flagged for a closer look

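Of 24 groups of 4 libraries (8 members in 3 groups), 3 had a library far from the others by Dixon's test at 95%, where chance gives about 1 in 20. Cd24a had 3834 CPM in unrecombined library 2 against 931 to 1225 in the other 3, a gap of 0.898 of the whole range. Ly6a had 156 CPM in the same library against 45.2 to 60.8 (gap 0.859), and 57.8 CPM in recombined library 2 against 20.2 to 21.4 (gap 0.966). In their groups both libraries held the most salivary gland RNA, with 50794 and 9814 CPM over 11 genes. They also had the highest share of mitochondrial counts in their groups (27.7% and 24.2%). Their TMM scaling factors, 0.767 and 0.906, were the lowest of their groups, and a lower factor gives a higher CPM. The part of these traits in the outlying values was not tested. Without the libraries numbered 2 the Ly6a change was -2.60 against wild type (adjusted p = 0.000814) and -1.38 against unrecombined cells (0.011).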

How the results depend on the processing

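Of 616 values of the members under alternatives, 554 kept their direction and, where tested, their side of the threshold, 32 lost a call, 12 gained one and 18 changed sign. The 616 include the untested differences within a series of library numbers. Those were counted as kept when they held their sign and lay within the groups' SD of the fitted change. For recombined against wild type cells, 920 loci became 1617 with DESeq2, 594 with the 2 groups alone, 248 without recombined libraries 3 and 4, 470 without the libraries numbered 2, and 502 to 1217 with single libraries left out (502 without wild type library 4). The 3 members became 0 without recombined libraries 3 and 4, 1 in the 7 libraries low in salivary transcripts, and 1 to 3 with single libraries left out (1 without wild type library 2 or 4). For unrecombined against wild type cells, 0 loci became 78 with DESeq2, 18 with limma-voom and 8 with the 2 groups alone, and 1 member, Thy1, passed in each of these. Leaving out single libraries left 0 loci and 0 members. For recombined against unrecombined cells, 733 loci became 1349 with DESeq2, 282 without recombined libraries 3 and 4, and 449 to 1044 with single libraries left out (449 without unrecombined library 1). The 2 members became 1 with limma-voom, without the filter or without recombined libraries 3 and 4, and 1 to 3 with single libraries left out. With the replicate number as a block, 1194, 1 and 980 loci and 4, 0 and 4 members passed in the 3 comparisons in that order. The members gained were Thy1 in the first, where the numbers were not taken as pairs, and Cd44 and Ly6a in the last, and no other member's call changed. In all 3 comparisons the block was fitted with wild type libraries included. Fewer libraries also leave fewer degrees of freedom. The cause of the other shifts was not tested.

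The members' sign changes touched differences that passed the threshold in no alternative. For unrecombined against wild type cells, leaving out single libraries gave -0.16 to 0.0564 for Epcam, -0.39 to 0.18 for Prom1 and -0.27 to 0.16 for Tspan8. Tspan8 was 0.0435 with limma-voom, and Epcam 0.0464 with the library series as a term. The 7 libraries low in salivary transcripts gave 0.0227 for Epcam, -0.19 for Procr and 0.12 for Prom1. For recombined against unrecombined cells, Cd24a ranged from -0.69 to 0.26 with single libraries left out, and was 0.11 in the 7 libraries, 0.0528 without those numbered 2 and 0.0800 within the series 24. Kit against wild type, which passed in 2 of 25 alternatives, was 0.0272 without recombined libraries 3 and 4.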
